A study of Mus musculus with 14 samples.

Results

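Cells that had grown from transplanted fetal liver were set against the ProB cells that adult marrow makes without a transplant. The comparison holds 5 of the 14 arrays of the series, chosen by their titles alone, 3 of wild type fetal liver after engraftment (WT engrafted) and 2 titled ProB. For WT engrafted cells, fetal liver of wild type embryos at day 15 that carried a reporter of λ5, the surrogate light chain gene Igll1, was given to sublethally irradiated mice. After 4 weeks, cells that carried B220 and showed the reporter were sorted from their marrow. ProB cells were sorted from the marrow of C57Bl6 mice that received no transplant, and the gate is not given in the sources used here. A further 2 arrays of PreB cells from such mice serve as a later stage to read values against. All 3 groups are labelled C57Bl6, bone marrow and adult, 8 to 12 weeks old, carry no deletion of Pax5, and had no treatment beyond the transplant. The number of animals behind an array is not stated, nor whether the ProB mice carried the reporter. Fetal origin, growth in an irradiated host and the reporter gate all come with the WT engrafted label, so the part of each in a difference cannot be told apart.

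B cells form in the marrow in ordered steps. In pro-B cells the RAG proteins join the gene segments of the heavy chain, and the finished chain pairs with the surrogate light chain, made of λ5 and VpreB, to form the pre-B cell receptor. Its signal through Syk and the CD79 chains drives a burst of division. Large pre-B cells then shut off the surrogate light chain, turn quiescent as small pre-B cells and rearrange a light chain. B220, an isoform of the Ptprc protein, is carried from the pro-B stage onwards, and λ5 is made by pro-B and large pre-B cells, so a gate on B220 and a λ5 reporter can hold cells on either side of the pre-B receptor checkpoint.

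The values are log2 signals of an array whose probes lie near the 3' end of each transcript, 1 probe set a gene for 18193 genes, and run from 2.32 to 16.1. A group is said to be at the floor for a gene when all its arrays lie within 0.5 of the lowest value, and a difference against such a group is a lower bound. A gene is called when the limma test gives it an adjusted p under 0.05 (Benjamini-Hochberg over all genes). Differences are WT engrafted minus ProB on the log2 scale with the standard error of the fit (n = 3 and 2 arrays), and 1 unit is a doubling. WT engrafted arrays correlated with each other at r = 0.977 to 0.988 across genes and ProB arrays at 0.981. The sex-linked genes split the 5 arrays. Xist read 2.33 and 2.58 on WT engrafted arrays 1 and 2 and 12.7 on array 3, against 10.7 and 11.5 on the ProB arrays, and Eif2s3y, a Y-linked gene, ran the other way at 10.7, 10.3 and 2.32, against 2.32 and 2.32. WT engrafted array 3 was also the lowest of the 3 for 21 of the 26 pre-B and immature B genes, against 41.3% of all genes above the floor, and the highest for 15 of 16 granulocyte and monocyte markers above the floor, against 31.4%.

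Of the 18193 genes 897 were called (4.93%), 661 higher (3.63%) and 236 lower (1.3%) in WT engrafted cells. The median called rise was 1.97 and the median called fall -1.54, and 323 rises and 69 falls were at least 4-fold. The WT engrafted arrays and the ProB arrays do not overlap for any of the 897, a pattern that 2944 genes show upwards (16.2%) and 1899 downwards (10.4%) whether called or not. Leaving out ProB array 1 gave 1825 calls, leaving out WT engrafted array 1 gave 489 and leaving out array 2 gave 529. With the 5 arrays alone in the fit 100 genes were called, 68 of the 897 among them. The balance of rises and falls depended on the arrays and on the scaling between them. Without ProB array 1 there were 545 rises and 1280 falls. Quantile normalization gave 428 higher and 382 lower, and equal array medians 392 higher and 568 lower. The median difference over the 10713 genes above the floor in a group was 0.15 as deposited, -0.06 after quantile normalization and -0.17 with equal medians, so small differences of a list are read relative to that shift. Of those 10713 genes 6.16% were called higher and 1.98% lower.

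**Figure D1:**
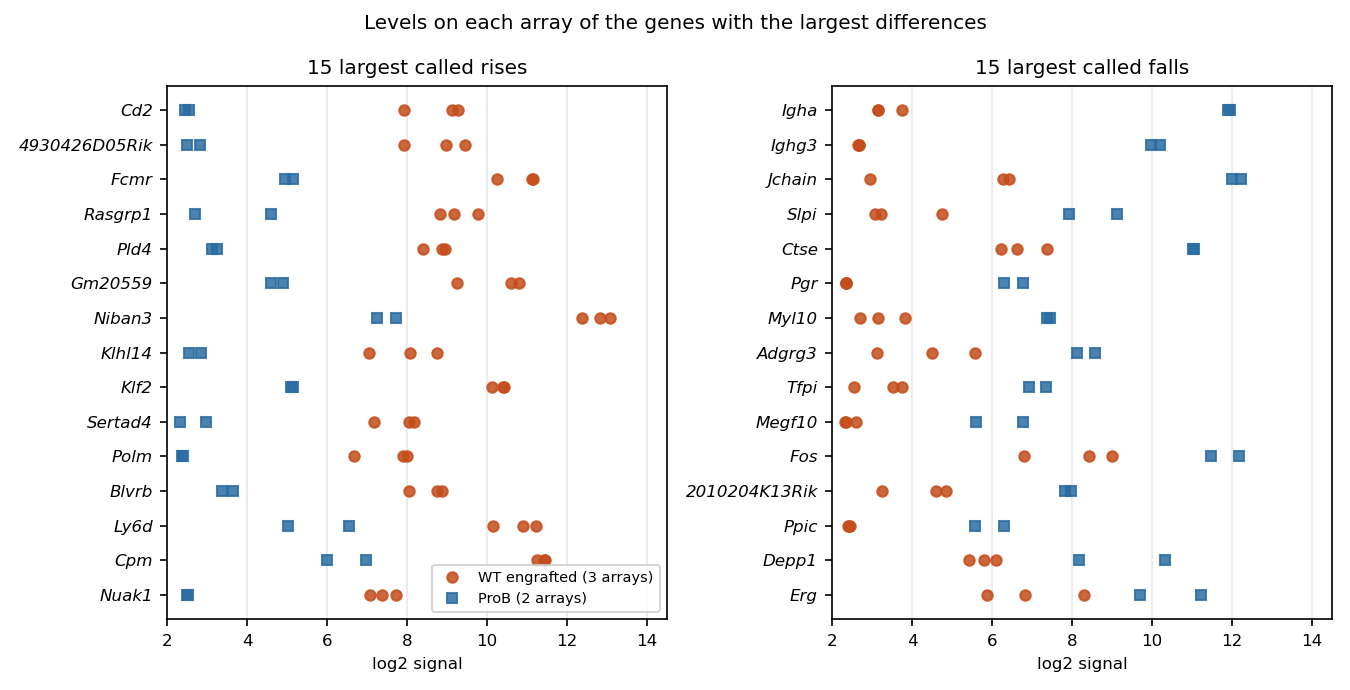
Levels (log2 signal, horizontal axis) of the 15 genes with the largest called rises and the 15 with the largest called falls, with a circle for each of the 3 WT engrafted arrays and a square for each of the 2 ProB arrays. In every row the circles and squares are apart, from Cd2 at 7.93 to 9.28 against 2.44 and 2.55 down to Erg at 5.87 to 8.30 against 9.71 and 11.2.

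None of the genes behind the sort was called between the groups. Igll1, the gene of λ5, read 11.8, 11.4 and 12.8 on the WT engrafted arrays, against 12.9 and 13.5 on the ProB arrays and 8.40 and 9.02 on the PreB arrays. Its difference from ProB cells was -1.23 ± 0.40 (adjusted p = 0.143, and 0.0301 without WT engrafted array 3), and its difference from PreB cells was 3.27 ± 0.40 (adjusted p = 0.00199). The gene behind the reporter was thus highest in ProB cells by its mean, and in WT engrafted cells far above PreB cells. Vpreb1, the other surrogate light chain gene, named after its values were seen, read 12.1, 11.9 and 12.1, against 12.8 and 13.8 in ProB and 10.1 and 10.3 in PreB cells. Ptprc, the gene of B220, read 12.6, 12.7 and 11.4, against 10.7 and 10.5 in ProB cells, a difference of 1.64 ± 0.51 that was not called (adjusted p = 0.122, and 0.0454 without WT engrafted array 3). Pax5, the commitment factor of B cells, read 6.76, 6.18 and 6.60, against 3.92 and 4.90 in ProB cells (2.10 ± 0.67, adjusted p = 0.135). Ebf1, which acts before Pax5, read 12.4, 12.4 and 11.7, against 11.0 and 12.3 in ProB cells (0.50 ± 0.46, adjusted p = 0.720). Both groups carried these transcripts of the B lineage above the floor on every array.

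Genes of the pre-B and immature B stages were higher in WT engrafted cells. Of the 26 measured, 17 rose and none fell (65.4% called, beside 8.14% of the genes above the floor in a group). The WT engrafted arrays were all above the ProB arrays for 25 of them, as for 16.2% of all genes. The median difference was 3.24, against 0.15 over all genes above the floor. Cd2, a lymphocyte adhesion molecule, read 9.28, 9.13 and 7.93 in WT engrafted cells, against 2.55 and 2.44 in ProB cells, where it lies at the floor. The rise was therefore at least 6.28 ± 0.34 (adjusted p = 4.57e-05), and the PreB arrays read 9.66 and 9.52. Fcmr, a receptor for the Fc part of IgM, read 11.1, 11.2 and 10.3, against 5.15 and 4.93 in ProB cells (5.80 ± 0.25, adjusted p = 1.05e-05) and 8.84 and 8.44 in PreB cells. Ms4a1, the gene of CD20, read 12.4, 12.2 and 10.9, against 7.01 and 7.02 in ProB cells (4.83 ± 0.42, adjusted p = 0.000538). Btg2, a brake on division, read 9.04, 9.05 and 8.74, against 4.36 and 4.13 in ProB cells (4.70 ± 0.37, adjusted p = 0.000353). Cd40, the receptor through which T cells help B cells, read 8.10, 7.27 and 6.74, against 2.71 and 2.86 in ProB cells (4.58 ± 0.37, adjusted p = 0.000401). In each of these the lowest WT engrafted array stands more than 3 log2 units above the higher ProB array, and array 3 is the lowest of the 3.

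The other called members of that list were Cd74, Btla, H2-Eb1, Fcrla, Il2ra, Tnfrsf13c, Cd55, Ltb, Cd72, Btg1, Cd22 and Ciita, given here to complete the list. Il2ra, the gene of CD25 and a surface mark of small pre-B cells in the mouse, read 6.22, 6.62 and 5.17 in WT engrafted cells, against 2.32 and 2.36 in ProB cells, at the floor, and 6.61 and 6.30 in PreB cells. Its rise was at least 3.67 ± 0.45 (adjusted p = 0.00276). Class II genes formed one block of the list. Cd74, the invariant chain, read 10.8, 11.0 and 9.94, against 6.55 and 5.44 in ProB cells (4.56 ± 0.74, adjusted p = 0.0112, and 0.0666 without ProB array 2). Ciita, the activator of class II genes, read 4.01, 3.59 and 4.81, against 2.33 and 2.33, at the floor (at least 1.81 ± 0.28, adjusted p = 0.00835). H2-Aa, a class II chain, read 12.0, 11.6 and 11.7, against 7.33 and 8.02, and was not called (4.10 ± 1.23, adjusted p = 0.111). With the 5 arrays alone in the limma fit it stayed uncalled (adjusted p = 0.0531). Of its 4 probe sets 2 were called higher, and the mean of all 4 was called (3.91, adjusted p = 0.0218). The 9 members that were not called all had a positive difference, from 0.61 for Cd52 upwards. With WT engrafted array 3 alone against the ProB arrays 10 members were called higher and the median difference was 2.82. A bulk value does not separate a larger share of cells at a later stage from more RNA per cell.

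**Figure D2:**
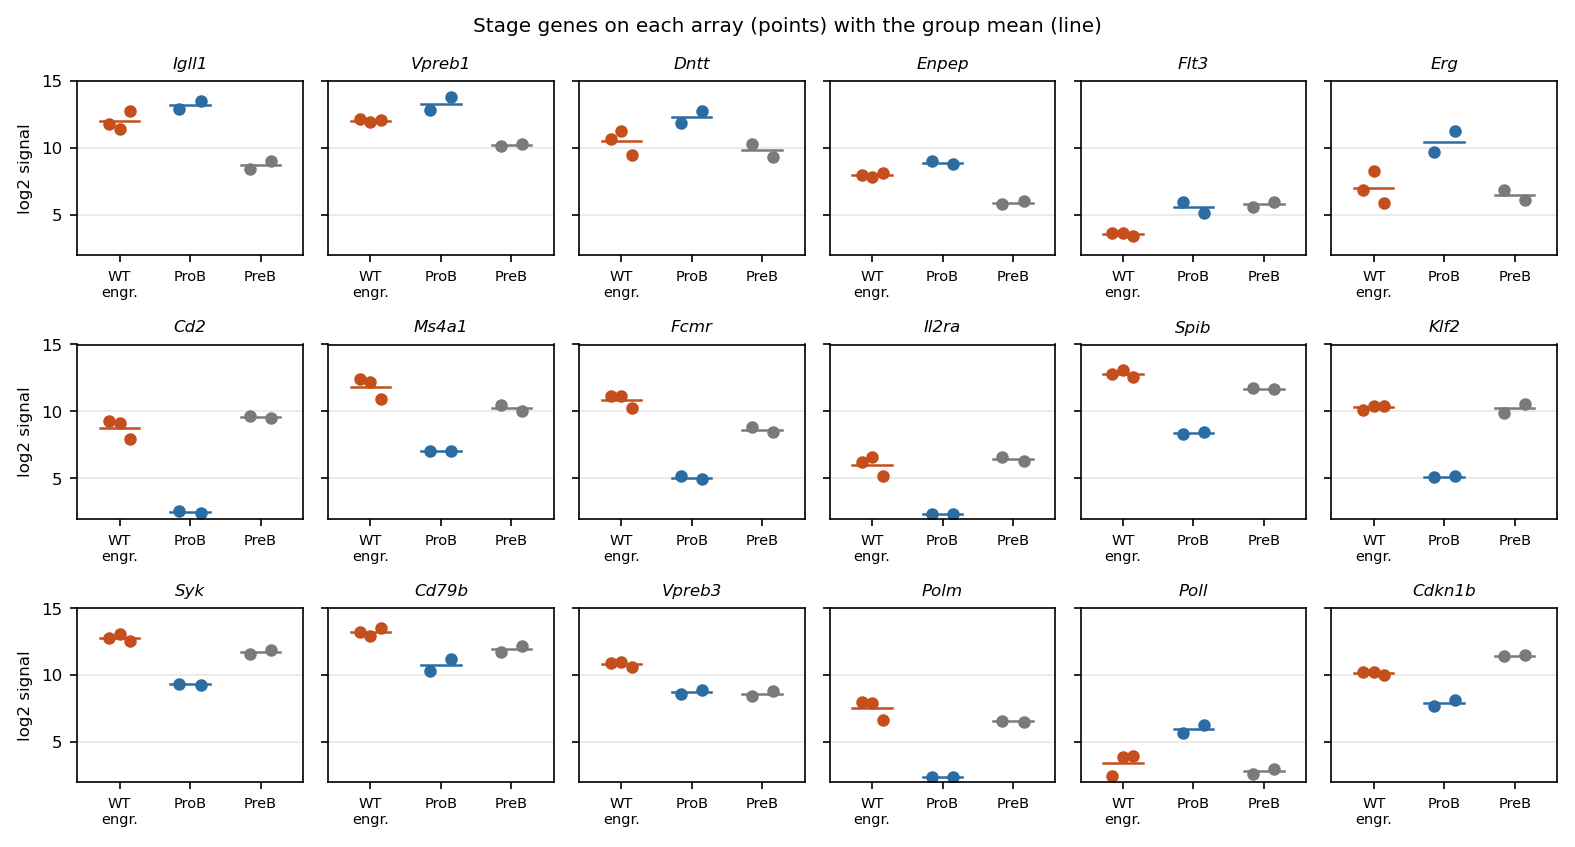
Log2 signal (vertical axis) of 18 stage genes in WT engrafted, ProB and PreB cells, with a point for each array and a line at the group mean. The WT engrafted arrays lie near the PreB arrays for Cd2, Il2ra and Klf2, nearer to the ProB arrays for Igll1, and above both for Fcmr, Ms4a1 and Vpreb3.

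Of the 30 B lineage transcription factors, 12 rose and 1 fell, with a median difference of 1.33. These calls took 43.3% of the list, beside 8.14% of the genes above the floor in a group. Klf2, a factor of lymphocyte quiescence and migration, read 10.1, 10.4 and 10.4 in WT engrafted cells, against 5.10 and 5.15 in ProB cells (5.19 ± 0.43, adjusted p = 0.000466), and 9.88 and 10.6 in PreB cells. Spib, an Ets family factor that shares sites with PU.1, read 12.8, 13.1 and 12.6, against 8.28 and 8.44 in ProB cells (4.47 ± 0.39, adjusted p = 0.000538). Spi1, the gene of PU.1 itself, read 6.90, 7.04 and 7.31, against 4.69 and 5.08 (2.20 ± 0.20, adjusted p = 0.000722). For these 3 genes the gap between the groups is several times the range within either. Bach2, a repressor that holds back plasma cell fate, differed by 2.44 ± 0.49 (adjusted p = 0.0286), and leaving out any 1 array other than WT engrafted array 3 ended its call (adjusted p = 0.0701 to 0.0905). Sox4, a factor that early B cell development needs, differed by 2.12 ± 0.42 (adjusted p = 0.0263), and the call was lost without WT engrafted array 1 (0.083), array 2 (0.0786) or ProB array 1 (0.0883). Id2, Zeb2, Irf8, Bcl6, Ikzf3, Id3 and Pou2af1 made up the other called rises, of 1.202 to 1.89. Irf4, a factor of light chain rearrangement, read 11.4, 11.7 and 10.9, against 8.76 and 9.14, and was not called (2.36 ± 0.74, adjusted p = 0.126). The 12 rises became 6 without WT engrafted array 1, array 2 or ProB array 1, to 7 without ProB array 2, and to 6 with array 3 as the only WT engrafted array.

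In the pre-B receptor chain 4 of 18 genes rose and none fell. That is 22.2% of the list, beside 8.14% of the genes above the floor in a group. Syk, the kinase that the receptor calls on first, read 12.8, 13.0 and 12.5 in WT engrafted cells, against 9.34 and 9.28 in ProB cells (3.47 ± 0.24, adjusted p = 0.000234) and 11.6 and 11.9 in PreB cells. Cd79b, a signalling chain of the receptor, read 13.2, 12.9 and 13.5, against 10.3 and 11.2 in ProB cells (2.46 ± 0.34, adjusted p = 0.00518). Vpreb3, which binds newly made heavy chains inside the cell, read 10.9, 11.0 and 10.6, against 8.61 and 8.90 in ProB cells (2.07 ± 0.27, adjusted p = 0.0039) and 8.41 and 8.77 in PreB cells. All 3 WT engrafted arrays stood above all 4 arrays of the ProB and PreB groups for each of these genes. Prkcb, a kinase downstream of the receptor, read 11.9, 12.3 and 11.2, against 9.92 and 10.3, and its call (1.70 ± 0.39, adjusted p = 0.0447) was lost without any 1 array other than WT engrafted array 3 (adjusted p = 0.113 to 0.136). When each probe set was tested on its own, none of the 3 for Prkcb was called. Bank1, an adaptor of B cell receptor signalling, read 10.2 and 9.91 on WT engrafted arrays 1 and 2 but 6.93 on array 3, against 6.94 and 7.09 in ProB cells. It was not called over all arrays (adjusted p = 0.298) and was called without array 3 (adjusted p = 0.0133). Ighm, the heavy chain of IgM, read 14, 14.1 and 14.1, against 13.0 and 13.4 in ProB cells (0.87 ± 0.28, adjusted p = 0.135).

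The recombination genes split. Polm, the gene of DNA polymerase mu, which fills ends in light chain joining, read 8.00, 7.90 and 6.66 in WT engrafted cells, against 2.40 and 2.36 in ProB cells, at the floor (at least 5.14 ± 0.33, adjusted p = 0.000133), and 6.57 and 6.48 in PreB cells. Poll, the gene of DNA polymerase lambda, which acts in heavy chain joining, read 2.45, 3.85 and 3.91, against 5.65 and 6.24 in ProB cells (-2.54 ± 0.46, adjusted p = 0.017, and 0.1 without ProB array 2), and 2.598 and 2.995 in PreB cells. These 2 polymerases thus moved in opposite directions, and in each the PreB arrays lay on the side of the WT engrafted arrays. Of the 13 genes of the list no other was called, and the list's median was 0.25 as deposited and -0.09 with equal array medians. The called share was 15.4%, beside 8.14% of the genes above the floor in a group. Rag1, which cuts at the recombination signals, read 12.0, 12.0 and 10.2, against 9.28 and 8.70 in ProB cells, a difference of 2.42 ± 0.73 (adjusted p = 0.113, and 0.0408 without WT engrafted array 3). Dntt, the terminal transferase that adds bases to heavy chain joints, read 10.7, 11.3 and 9.49, against 11.9 and 12.8 in ProB cells (-1.83 ± 0.50, adjusted p = 0.083), and was called after quantile normalization and with equal array medians.

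Among the surface markers of the pro-B stage 3 of 14 rose and 2 fell. Calls thus took 35.7% of them, beside 8.14% of the genes above the floor in a group. Ly6d, a mark of B lineage commitment, read 11.2, 10.9 and 10.1 in WT engrafted cells, against 6.55 and 5.02 in ProB cells (4.97 ± 0.50, adjusted p = 0.0012). Csf2rb, the common beta chain of cytokine receptors, read 7.58, 7.05 and 7.003, against 4.57 and 3.48 (3.19 ± 0.37, adjusted p = 0.00233). Cd24a, the heat stable antigen, differed by 0.83 ± 0.17 (adjusted p = 0.028), with the call lost without ProB array 1 (0.0937), WT engrafted array 2 (0.0785) or array 3 (0.0521). Enpep, the gene of BP-1, a pro-B and large pre-B mark, read 8.01, 7.83 and 8.14, against 9.01 and 8.78 in ProB cells (-0.90 ± 0.10, adjusted p = 0.00195), and 5.78 and 6.03 in PreB cells, from which it also differed (2.09 ± 0.10, adjusted p = 8.59e-06). The order of its group means was that of Igll1, highest in ProB and lowest in PreB cells. Flt3, a receptor of lymphoid progenitors, read 3.66, 3.63 and 3.39, against 5.99 and 5.16 in ProB cells (-2.02 ± 0.37, adjusted p = 0.0188). Its call was lost without WT engrafted array 1 (0.0547), array 2 (0.0535) or ProB array 1 (0.0628). Kit, the stem cell factor receptor, read 3.11, 3.97 and 2.52, against 5.32 and 4.89 in ProB cells (-1.90 ± 0.73, adjusted p = 0.226).

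Transcripts of earlier progenitors were lower in some cases only. Of the 20 stem and multipotent progenitor genes measured 2 fell, Egfl7 and Flt3, 1 rose, Sox4, and the median was 0. Together 15% were called, beside 8.14% of the genes above the floor in a group. Erg, an Ets factor of stem cells and early progenitors, read 6.83, 8.30 and 5.87 in WT engrafted cells, against 9.71 and 11.2 in ProB cells (-3.47 ± 0.76, adjusted p = 0.0392). The call was lost without WT engrafted array 1 (0.115), array 3 (0.0728) or ProB array 2 (0.223). Egfl7, the gene that hosts the microRNA miR-126, read 5.80, 5.24 and 5.49, against 7.29 and 8.29 (-2.28 ± 0.40, adjusted p = 0.0154, and 0.0539 and 0.087 without WT engrafted array 2 and ProB array 2). Hoxa9, a homeobox gene of progenitors, read 5.60, 6.49 and 3.37, against 7.55 and 7.95 (-2.602 ± 1.11, adjusted p = 0.297). In each of these 3 genes every WT engrafted array was below both ProB arrays.

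The 3 largest falls were in transcripts of class-switched antibodies, products of mature B and plasma cells, and of the joining chain. Igha, the heavy chain of IgA, read 3.15, 3.14 and 3.75 in WT engrafted cells, against 11.9 and 12.0 in ProB cells (-8.58 ± 1.07, adjusted p = 0.0031), and 8.12 and 3.36 in PreB cells. Ighg3, the heavy chain of IgG3, lay at the floor in WT engrafted cells at 2.64, 2.66 and 2.66, against 9.96 and 10.2 in ProB cells, so it fell by at least 7.42 ± 0.44 (adjusted p = 8.81e-05), although only 1 of its 4 probe sets was called. Jchain, the chain that joins IgA and IgM units, read 2.93, 6.27 and 6.41, against 12.0 and 12.2 (-6.91 ± 1.61, adjusted p = 0.0476). Leaving out any 1 of the 5 arrays ended the Jchain call (adjusted p = 0.0619 to 0.186). Both ProB arrays were high in all 3 transcripts, and the PreB arrays differed from each other by 4.76 for Igha and 6.05 for Jchain. On the 3 arrays of engrafted fetal liver labelled Pax5 knockout (Pax5KO engrafted), Jchain read 11.8, 12.0 and 12.5. Igha read 3.14, 3.28 and 3.14 there, and Ighg3 2.66 to 2.70. The rest of the antibody and plasma cell list did not follow these falls. Sdc1, the gene of the plasma cell mark CD138, read 9.17, 8.67 and 10.1, against 7.95 and 8.63 in ProB cells, Prdm1, a factor of plasma cell fate, was at the floor in both groups, and Tnfrsf17, the fourth called fall, lay at the floor in both groups, so no fold is given for it. Of 13 members measured 4 were called lower and none higher, with a median of 0.01. Called members made up 30.8%, beside 8.14% of the genes above the floor in a group. The log2 signals of the 13 members added up to 78.8 to 83.0 on the WT engrafted arrays, against 97.7 and 98.4 on the ProB arrays. Such a sum of logs is not a total of transcripts. The falls of Igha, Ighg3 and Jchain together exceed that gap, so the sum does not show a fall of the other members. The part of antibody-making cells in the ProB sort was not tested.

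Of 7 basophil and mast cell transcripts, chosen after values were seen, 4 were called higher in WT engrafted cells than in ProB cells, and some granulocyte markers read higher without passing the test. Of 23 granulocyte and monocyte markers none was called by limma against ProB cells (5 at an unadjusted p under 0.05). All WT engrafted arrays lay above the ProB arrays for 8 of the 23, a pattern that 16.2% of all genes show. Another 7 lay at the floor in both groups, among them Ltf, Itgam, Csf3r and Cebpa. The sum of the log2 signals of the 23 markers, which is not a total of transcripts, was 82.7, 90.0 and 110.1 on WT engrafted arrays 1 to 3. It was 70.9 and 71.2 on the ProB arrays and 160.3 and 169.3 on the PreB arrays. S100a8, a neutrophil protein, read 7.32, 7.27 and 8.25, against 3.18 and 3.29 in ProB cells and 12.0 and 12.9 in PreB cells (4.37 ± 1.91, adjusted p = 0.298). Mpo, the myeloperoxidase of granule-forming cells, named after its values were seen, read 4.31, 7.91 and 9.39, against 3.27 and 3.18 in ProB cells (3.98 ± 1.201, adjusted p = 0.113). The basophil and mast cell transcripts were looked at after Mcpt8, the basophil protease, proved to be the gene furthest above both ProB and PreB cells. Mcpt8 read 7.07, 7.85 and 8.82 in WT engrafted cells, against 2.52 and 3.69 in ProB cells and 3.10 and 2.596 in PreB cells (4.80 ± 0.75 over ProB, adjusted p = 0.00964). Ms4a2, the beta chain of the IgE receptor, read 4.86, 5.77 and 6.17, against 2.35 and 2.32 in ProB cells, at the floor (at least 3.27 ± 0.40, adjusted p = 0.00276), and Cpa3, a mast cell carboxypeptidase, rose by at least 2.18 ± 0.35 (adjusted p = 0.0106). Hdc, which makes histamine, read 4.42, 4.83 and 5.19, against 2.95 and 2.91 in ProB cells (1.89 ± 0.21, adjusted p = 0.00185) and 8.15 and 8.39 in PreB cells, so that it lay below PreB cells (-3.45 ± 0.21, adjusted p = 3.92e-05). Fcer1a, Cd200r3 and Gata2 were not called (adjusted p = 0.528, 0.222 and 0.0666). All 4 called transcripts were lowest on WT engrafted array 1 and highest on array 3. The part of non-B cells in the WT engrafted sort was not tested.

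**Figure D3:**
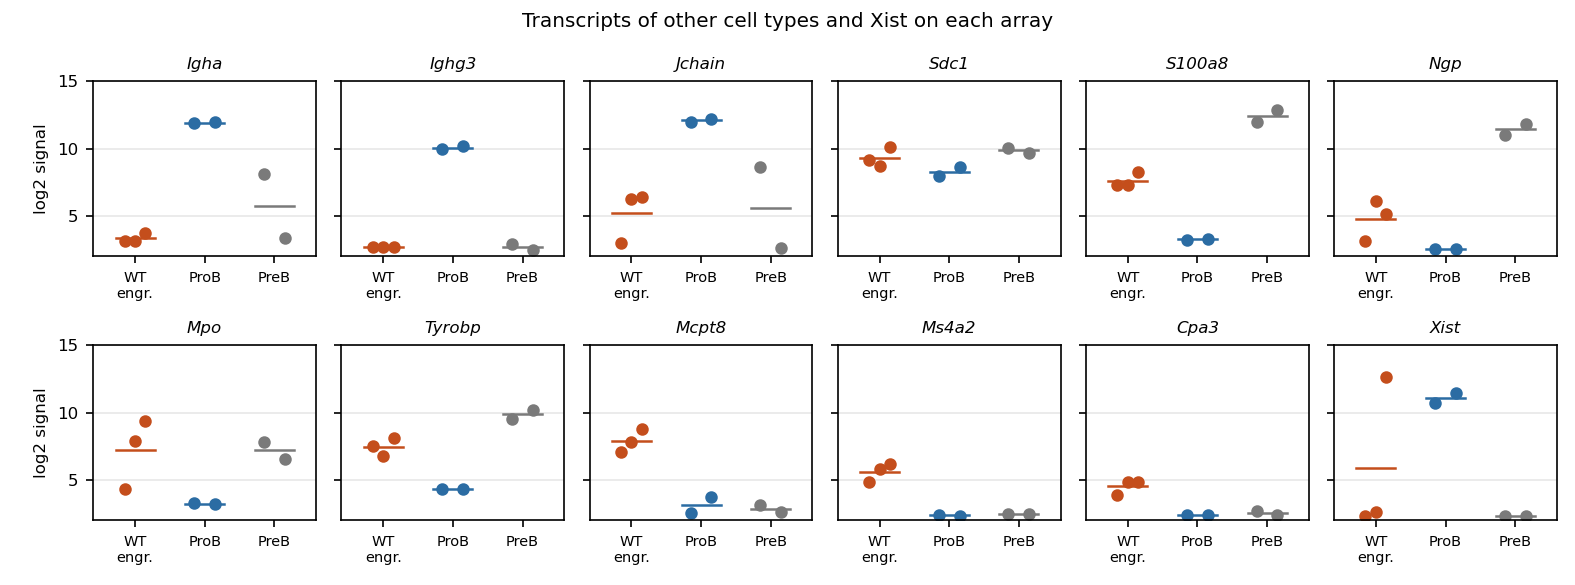
Log2 signal (vertical axis) of antibody, granulocyte, basophil and mast cell transcripts and of Xist in WT engrafted, ProB and PreB cells, with a point for each array and a line at the group mean. Igha, Ighg3 and Jchain are high on both ProB arrays, and S100a8 and Ngp are highest on the PreB arrays. Mcpt8, Ms4a2 and Cpa3 are higher on the 3 WT engrafted arrays than on the ProB and PreB arrays, with Cpa3 at only 3.84 to 4.87.

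Erythroid, natural killer and stromal markers gave little signal in either group. None of 15 erythroid and megakaryocyte markers and none of 15 natural killer markers was called by limma (0 and 0 at an unadjusted p under 0.05), and 9 and 12 of them lay at the floor in both groups. Of 16 stromal markers 11 were at the floor in both, and Sparc, a matrix protein, fell by at least 1.38 ± 0.15 (adjusted p = 0.00139), from 1 of its 3 probe sets and not in the mean of them. Among 17 T lineage genes the defining Cd3e, Cd3d, Cd3g, Cd8a and Cd8b1 were at the floor, while 2 genes of Notch signalling rose. Counting the fall of Lat, 17.65% were called, beside 8.14% of the genes above the floor in a group. Dtx1, a Notch target, read 7.14, 7.30 and 6.72, against 2.84 and 2.45 in ProB cells (4.41 ± 0.21, adjusted p = 1.86e-05) and 7.08 and 7.31 in PreB cells. Notch1 differed by 1.17 ± 0.21 (adjusted p = 0.0161), and its call was lost without WT engrafted array 1 (0.054) or ProB array 2 (0.0577). Lat, an adaptor of T cell and early pre-B signalling, read 2.73, 4.61 and 3.85, against 6.51 and 6.38 (-2.72 ± 0.54, adjusted p = 0.0265), and the call was lost without ProB array 1 (0.0659), ProB array 2 (0.0979) or WT engrafted array 3 (0.0504). In the dendritic cell list Irf8, also a B cell factor, rose by 1.67 ± 0.20 (adjusted p = 0.00249) and Flt3 fell.

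No gene of DNA copying or of mitosis was called against ProB cells. That held for 25 replication genes and 27 mitosis genes by limma (2 and 3 at an unadjusted p under 0.05), and the medians were -0.14 and 0.05. Mki67, a mark of cycling cells named after its values were seen, read 13.4, 13.9 and 13.0 in WT engrafted cells, against 13.5 and 13.7 in ProB cells. Against PreB cells, 8 of the replication genes and 14 of the mitosis genes were called higher in WT engrafted cells and none lower. Of all genes 4.52% were called higher and 2.86% lower in that comparison. The PreB arrays stood apart in the actin control probe sets described below. With the actin difference as a covariate the higher calls against PreB cells fell from 822 to 35 over all genes. Of the uncalled members the replication polymerase gene Pola1 differed by -1.90 ± 0.57 (adjusted p = 0.112) and the cyclin gene Ccnb2 by 1.10 ± 0.30 (adjusted p = 0.0828). Among 16 genes of quiescence and of the G1 phase 3 rose (18.75%, beside 8.14% of the genes above the floor in a group). Cdkn1b, the gene of the cell cycle inhibitor p27, read 10.2, 10.3 and 10.0, against 7.70 and 8.09 in ProB cells (2.27 ± 0.20, adjusted p = 0.000538) and 11.4 and 11.5 in PreB cells. WT engrafted cells thus lay between the other groups, and were called against each. Rb1, the retinoblastoma gene, differed by 1.70 ± 0.36 and Sesn1, a p53-induced regulator of growth signals, by 1.202 ± 0.25 (adjusted p = 0.0345 and 0.0329), and both calls were lost without any 1 array other than WT engrafted array 3 (adjusted p = 0.0683 to 0.1495). Cdkn2d, another inhibitor, read 10.0, 9.91 and 7.84, against 6.56 and 5.95, and was not called (3.004 ± 0.94, adjusted p = 0.1245).

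In the interleukin 7 and cytokine list 2 of 23 genes were called (8.70%), near the 8.14% of the genes above the floor in a group. Both were rises of survival genes. Bcl2l1, the gene of Bcl-xL, read 8.995, 8.83 and 9.39, against 6.29 and 6.20 in ProB cells (2.83 ± 0.28, adjusted p = 0.000992), with 1 of its 4 probe sets called. Pim2, a survival kinase, read 6.36, 6.29 and 6.55, against 3.82 and 3.88 in ProB cells (2.55 ± 0.34, adjusted p = 0.00436) and 6.03 and 6.46 in PreB cells. Il7r, the receptor itself, read 11.6, 12.0 and 11.2, against 10.4 and 10.8 (1.02 ± 0.35, adjusted p = 0.174). Stat3 differed by 1.59 ± 0.47 (adjusted p = 0.109), and the median of the list was 0.01. In the homing list 2 of 21 rose (9.52%), again beside 8.14% of the genes above the floor in a group. Cxcr5, the receptor that guides B cells to follicles, read 7.78, 8.16 and 6.78, against 3.36 and 3.90 in ProB cells (3.95 ± 0.63, adjusted p = 0.0105). Ccr7, which guides lymphocytes to lymph nodes, differed by 2.52 ± 0.48 (adjusted p = 0.0223), and its call was lost without WT engrafted array 1 (0.0766), array 3 (0.05195), ProB array 1 (0.0534) or ProB array 2 (0.0872). S1pr1, an exit receptor, read 5.76, 5.86 and 2.94, against 2.74 and 2.42, with array 3 at the ProB level (2.28 ± 0.75, adjusted p = 0.1495, and 0.00016 without array 3).

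Stress and early response genes went both ways. Fos, an immediate early factor, read 8.41, 9.01 and 6.80 in WT engrafted cells, against 11.5 and 12.2 in ProB cells (-3.75 ± 0.81, adjusted p = 0.0373), and 12.5 and 12.4 in PreB cells. Its call was lost without WT engrafted array 1 (0.0879), array 3 (0.0656), ProB array 1 (0.0577) or ProB array 2 (0.182). Cd69, an activation antigen, differed by -1.44 ± 0.33 (adjusted p = 0.0432, and 0.059 to 0.236 without WT engrafted array 1, 2 or 3 or ProB array 2). Jund rose by 2.21 ± 0.44 (adjusted p = 0.0269, and 0.0522 to 0.0816 without any 1 array). The 21 genes of that list held 2 rises, Btg2 and Jund, and 2 falls, with a median of 0. Calls took 19.05% of them, beside 8.14% of the genes above the floor in a group. Egr3 read 8.28 and 8.86 on WT engrafted arrays 1 and 2 and 2.97 on array 3, against 2.43 and 3.05 in ProB cells (3.96 ± 1.44, adjusted p = 0.199, and 1.28e-05 without array 3). Among 19 heat shock and folding genes the mitochondrial chaperone genes Hspe1 and Hspd1 and the cytosolic Hsph1 fell, and Herpud1, of the endoplasmic reticulum, rose. In this list 21.05% were called, against the same 8.14%. Hspe1 read 10.1, 9.40 and 10.3, against 11.6 and 11.7 in ProB cells (-1.75 ± 0.24, adjusted p = 0.00482). Hspd1 (-1.67 ± 0.33, adjusted p = 0.0274) and Hsph1 (-1.70 ± 0.39, adjusted p = 0.0467) were called too. Hspd1 lost its call without any 1 array other than WT engrafted array 2 (0.0622 to 0.0832), Hsph1 without any 1 array (0.0648 to 0.198), and Herpud1 (2.16 ± 0.36, adjusted p = 0.0133) without ProB array 2 (0.0533).

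Calls took 6.67% of the measured glucose and glycolysis genes, 10.5% of the cholesterol and fatty acid genes, 11.1% of the interferon genes and 10.5% of the p53 genes, beside 8.14% of the genes above the floor in a group. Pdk1, which keeps pyruvate out of mitochondria, was the only called member of 15 glucose and glycolysis genes and read 8.70, 8.81 and 8.33, against 10.0 and 9.90 in ProB cells (-1.34 ± 0.12, adjusted p = 0.000704). The median of that list was -0.55, with 8 members below and none above both ProB arrays on every WT engrafted array. Of all genes 10.4% lay below and 16.2% above in that way. Scd1, a fatty acid desaturase, read 10.9, 11.4 and 9.64, against 7.67 and 7.45 (3.08 ± 0.41, adjusted p = 0.00436), while Fads2, another desaturase, differed by -2.31 ± 0.47 (adjusted p = 0.0286), with the call lost without any 1 array other than WT engrafted array 2 (adjusted p = 0.062 to 0.105). They were the calls among 19 genes of cholesterol and fatty acid synthesis. Among 27 interferon genes Irf9, Tap1 and Irf1 rose, by 2.19 ± 0.38, 1.43 ± 0.30 and 1.18 ± 0.27 (adjusted p = 0.0146, 0.0337 and 0.0437), with a list median of 0.64. Irf9 lost its call without WT engrafted array 1 (0.0527) or array 2 (0.0524), Tap1 without any 1 array (0.0531 to 0.113) and Irf1 without any 1 array other than WT engrafted array 3 (0.11 to 0.133). Of 19 p53 genes Trp53inp1 rose by 2.595 ± 0.47 and Gadd45b by 2.17 ± 0.48 (adjusted p = 0.0178 and 0.0408). Trp53inp1 lost its call without WT engrafted array 1 (0.0619), array 2 (0.0535) or ProB array 2 (0.0734), and Gadd45b without any 1 array (0.0655 to 0.1296). Of 12 ribosomal protein genes Rpl7 rose by 0.57 ± 0.12 (adjusted p = 0.0291), a call lost under both other scalings and without any 1 array other than ProB array 2 (0.0531 to 0.1).

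**Figure D4:**
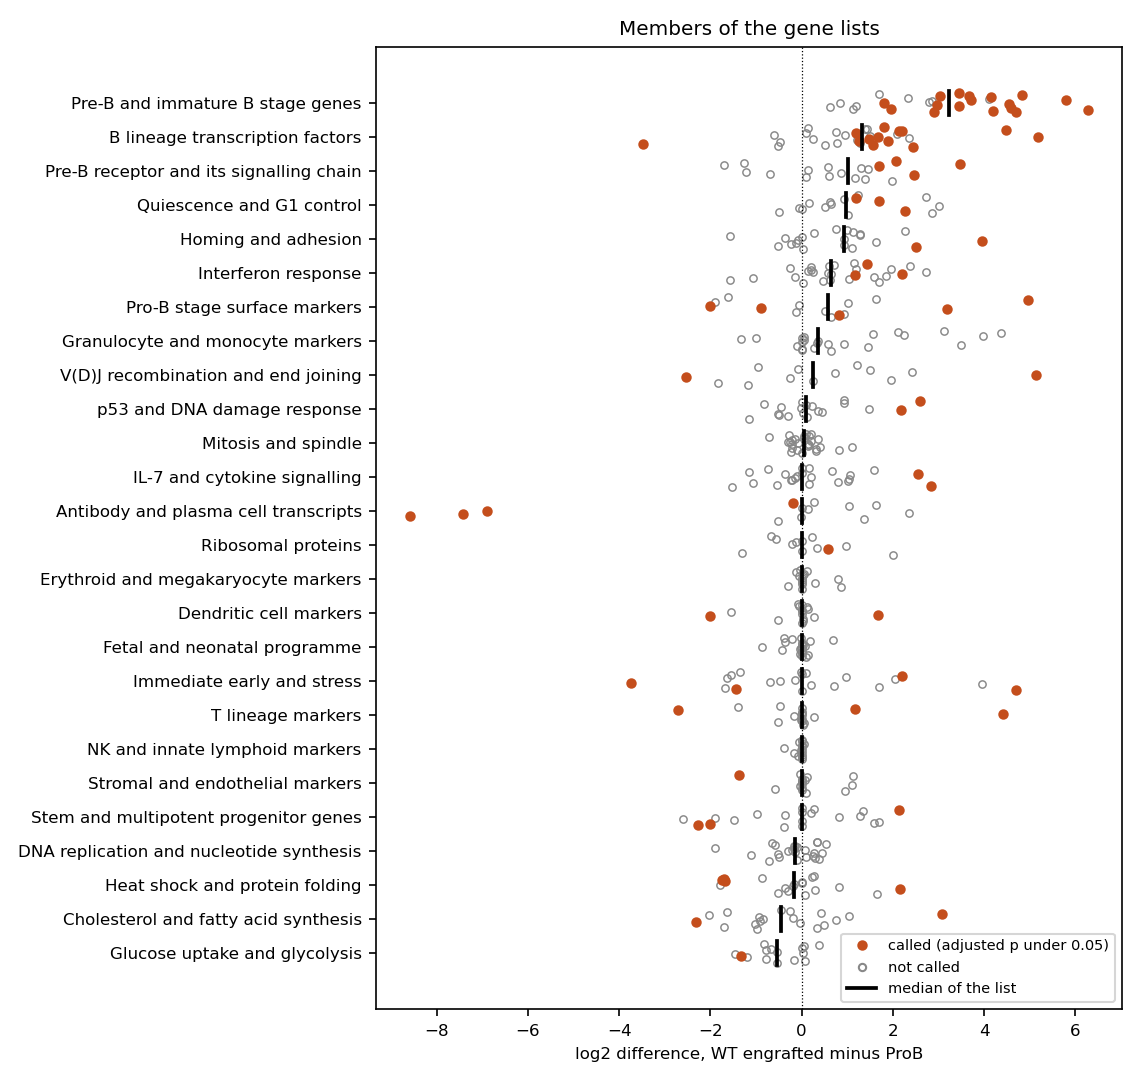
Log2 difference of every measured member of 26 gene lists, WT engrafted minus ProB, with filled points for called members, open points for the others and a bar at the list median. The pre-B and immature B list has the highest median at 3.24, and the replication and mitosis lists lie around 0 with no called member. In the antibody and plasma cell list 3 members lie below -6.

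No gene of the fetal and neonatal programme was called. Of the 22 measured 0 passed an unadjusted p under 0.05 by limma, 13 were at the floor in both groups and the median was 0. Lin28b, which sets the fetal programme of lymphocyte formation, read 2.32 on all 5 arrays. Igf2bp3, a target of Lin28b named after its values were seen, read 6.71, 6.17 and 6.50 in WT engrafted cells, against 6.14 and 6.62 in ProB cells (0.08 ± 0.38). Igf2bp1 read 2.54 on each WT engrafted array, against 2.54 and 4.26 (-0.86 ± 0.38, adjusted p = 0.298). The fetal and embryonic globin genes Hbb-y, Hbb-bh1 and Hba-x and the liver genes Alb and Afp gave no call.

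Among the largest differences outside the lists, the rises held Pld4, an endolysosomal nuclease, at 8.94, 8.87 and 8.39 in WT engrafted cells, against 3.11 and 3.24 in ProB cells (5.56 ± 0.49, adjusted p = 0.000585). Niban3 read 12.8, 13.1 and 12.4, against 7.25 and 7.73 (5.27 ± 0.24, adjusted p = 1.81e-05). Nuak1, a kinase of the AMPK family, read 7.06, 7.38 and 7.72, against 2.52 and 2.50, at the floor (at least 4.88 ± 0.20, adjusted p = 9.09e-06). Rasgrp1, an activator of Ras, differed by 5.62 ± 0.51 (adjusted p = 0.000664), with 1 of its 4 probe sets called. The others were 4930426D05Rik, Gm20559, Klhl14, Sertad4, Blvrb and Cpm, with differences of 4.90 to 6.13. Of the falls, Ctse, an aspartic protease, read 7.37, 6.62 and 6.21, against 11.0 and 11.0 in ProB cells (-4.30 ± 0.49, adjusted p = 0.00206) and 12.2 and 11.7 in PreB cells. Of its 2 probe sets 1 was called, and the call was lost with their mean (-1.999, adjusted p = 0.262) and with the 5 arrays alone in the fit (adjusted p = 0.0774). Slpi, a protease inhibitor, read 3.06, 3.21 and 4.74, against 7.91 and 9.12 (-4.84 ± 0.56, adjusted p = 0.00206), and Tfpi, an inhibitor of clotting, 3.52, 3.74 and 2.54, against 6.91 and 7.35 (-3.87 ± 0.36, adjusted p = 0.000722). Myl10, a myosin light chain, read 3.15, 2.69 and 3.81, against 7.43 and 7.37 (-4.19 ± 0.51, adjusted p = 0.00287). Megf10 and 2010204K13Rik fell by at least 3.76 and by 3.65, and the other called falls were Pgr, Adgrg3, Ppic and Depp1. The calls of Pgr (0.0808 to 0.1295) and Ppic (0.0511 to 0.0759) were lost without any 1 array, that of Adgrg3 without ProB array 2 (0.0545) and that of Depp1 without any 1 array other than ProB array 2 (0.0576 to 0.0862).

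Against PreB cells 1343 genes were called (7.38%), 822 higher (4.52%) and 521 lower (2.86%) in WT engrafted cells. The PreB arrays stood apart in the actin controls and in markers of other cells. The actin control probe sets at the 3' end exceeded those at the 5' end by 2.51, 2.56 and 3.47 in WT engrafted cells, against 7.27 and 6.71 in PreB cells (2.73 and 3.67 in ProB cells), and with that difference as a covariate 97 genes were called. Granulocyte markers were called lower in WT engrafted than in PreB cells for 12 of 23 and natural killer markers for 9 of 15. Hspa1b, a heat shock gene, read 5.64, 7.55 and 6.01 in WT engrafted cells, against 14.1 and 13.9 in PreB cells. Of the pre-B and immature B list 3 of 26 were higher and 2 lower than in PreB cells with a median of 0.55, where the ProB comparison gave 17, 0 and 3.24. Of the B lineage factors 2 of 30 were higher and 4 lower, with a median of -0.12, where the ProB comparison gave 12, 1 and 1.33. The 2 comparisons share the WT engrafted arrays. Cd2 differed by -0.81 ± 0.34 from PreB cells (adjusted p = 0.244), Klf2 by 0.09 ± 0.43 and Dtx1 by -0.14 ± 0.21, whereas Fcmr was 2.20 ± 0.25 higher (adjusted p = 0.00142), Vpreb3 2.24 ± 0.27 higher (adjusted p = 0.00198) and Cdkn1b differed by -1.29 ± 0.20 (adjusted p = 0.00585).

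Of the list members called higher, 4 carry the EBF1 motif or the octamer in their promoters, which are shown for that reason. Members called lower were not considered for display. EBF1 and the octamer factors bind to B cell promoters, and their motifs were searched in the 250 bases before the start of each gene on both strands (RefSeq, GRCm38.p6), as TCCC and GGGA with any 2 bases between them for EBF1 and as ATTTGCAT for the octamer. Capitals mark a match to either motif or to CAGGTG, the E-box of E2A type, and each sequence is given 5' to 3' on the strand of its gene.
Cd22 promoter, chr7:30879029-30879278, minus strand: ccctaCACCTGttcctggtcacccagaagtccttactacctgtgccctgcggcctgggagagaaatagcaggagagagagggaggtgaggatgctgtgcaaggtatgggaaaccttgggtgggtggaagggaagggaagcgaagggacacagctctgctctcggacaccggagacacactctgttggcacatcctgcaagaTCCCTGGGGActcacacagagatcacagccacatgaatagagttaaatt
Pim2 promoter, chrX:7878056-7878305, plus strand: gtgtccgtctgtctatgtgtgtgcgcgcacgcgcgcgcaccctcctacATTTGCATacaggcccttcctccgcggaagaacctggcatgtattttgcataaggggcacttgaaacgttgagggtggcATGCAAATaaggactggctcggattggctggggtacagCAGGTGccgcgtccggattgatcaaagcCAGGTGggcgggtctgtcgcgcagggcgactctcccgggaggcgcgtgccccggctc
Vpreb3 promoter, chr10:75948050-75948299, plus strand: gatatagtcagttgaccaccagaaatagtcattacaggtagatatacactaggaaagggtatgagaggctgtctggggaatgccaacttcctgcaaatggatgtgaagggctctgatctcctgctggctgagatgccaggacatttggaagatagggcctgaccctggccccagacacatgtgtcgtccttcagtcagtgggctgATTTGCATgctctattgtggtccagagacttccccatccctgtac
Prkcb promoter, chr7:122288875-122289124, plus strand: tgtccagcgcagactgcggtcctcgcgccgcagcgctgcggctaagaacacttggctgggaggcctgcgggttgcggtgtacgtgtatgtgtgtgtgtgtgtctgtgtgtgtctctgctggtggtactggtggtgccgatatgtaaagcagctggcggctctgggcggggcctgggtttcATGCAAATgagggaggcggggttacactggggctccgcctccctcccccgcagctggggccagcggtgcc
Cd22, an inhibitory receptor of B cells, holds the EBF1 motif and read 10.6, 10.8 and 10.7 in WT engrafted cells, against 8.67 and 8.74 in ProB cells, with a call (1.97 ± 0.44, adjusted p = 0.0422) that was lost without any 1 array (adjusted p = 0.082 to 0.1495). Pim2 holds the octamer in 2 places and Vpreb3 and Prkcb in 1. The EBF1 motif was present in 2.09% of the 527 promoters of genes called higher and 0% of the 189 of genes called lower, beside 0.94% of the 8738 above the floor in a group and 0.92% of all 14452 with a sequence. The octamer was present in 3.04% of those called higher and 0.53% of those called lower, beside 1.3% above the floor and 1.38% of all. The E-box was present in 17.1% of those called higher and 17.5% of those called lower, beside 14.9% above the floor and 16.9% of all. For GAGGAAGT, the core bound by PU.1 and Spi-B, the shares were 3.98% and 2.12%, beside 2.52% above the floor and 2.32% of all. Of both other motifs searched the share was also higher in promoters of genes called higher than in those above the floor. The composite of Ets and IRF factors, GGAA and GAAA with any 2 bases between them, was in 3.61% of those called higher and 2.65% of those called lower, beside 1.95% above the floor and 2.05% of all. CCACACCC, a box bound by KLF factors, was in 5.5% and 3.7%, beside 3.47% above the floor and 3.54% of all. None of these shares was tested. A match describes the letters of the window and is not evidence that a factor binds there.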

How the data were processed

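RNA of sorted mouse bone marrow cells was labelled and hybridised to Affymetrix 3' arrays. The deposited values are log2 signals per probe set, normalized by the authors, and RMA, GCRMA and limma are named per the submitters' processing notes without versions or order. The genome build behind the probe design is not given in the sources used here. Of 45101 probe sets, 34945 carry 1 gene symbol in the platform annotation, 932 several, 9160 none and 64 are controls, and 34741 were matched to current symbols in RefSeq. For each of 18193 genes the brightest probe set by its mean on all 14 arrays was taken, and 9010 genes had more than 1. A gene may therefore be measured by other probe sets that disagree.

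Group means were fitted with limma 3.58.1 in R 4.3.3 over all 14 arrays without a block (lmFit and eBayes, 8 residual degrees of freedom), with Benjamini-Hochberg adjustment over all genes, so the spread is shared with the other groups. P-values measure the spread between arrays labelled as biological replicates. Named genes are the 15 largest called rises and falls, up to 5 called members per list and direction, the uncalled member with the largest difference, and the genes of the sort and stage. Members and the 27 lists (506 of 566 entries measured) were chosen with earlier results of these data known. Promoters came from RefSeq (GRCm38.p6). The number of arrays limits the precision. The alternatives were other scalings, filters, probe set rules, arrays in the fit, covariates, thresholds and each array left out.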

Additional observations from a re-analysis of the deposited data

How the results depend on the processing

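Of the 75 named genes called against ProB cells, 11 were called under every alternative run (Fcmr, Pld4, Niban3, Klf2, Nuak1, Ighg3, Spib, Syk, Btg2, Pim2 and Dtx1), 24 lost the call only with the 5 arrays alone in the fit, and 32 lost it with some 1 array left out. With the 5 arrays alone in the fit, 61 of the 75 were not called, Cd2, Polm, Ly6d, Ms4a1, Cd40, Spi1, Cd79b and Cdkn1b among them. That fit shared 68 of all 897 calls. None of the 75 changed direction under any alternative, while the uncalled Ebf1 (0.50) was -0.17 without ProB array 1 and the uncalled Bank1 (1.98) was -0.09 with a term for arrays high in Xist. The mean over a gene's probe sets ended the calls of Ctse, Pgr, Depp1, Rb1, Sesn1, Jund, Hsph1, Rpl7 and Sparc. The 897 calls against ProB cells became 100 with the 5 arrays alone in the fit and 299 at an adjusted p under 0.01, and lay between 489 and 1825 with 1 array left out, where the lone array of a group is assumed to vary like the other groups. The other alternatives gave 603 to 1327, among them 603 with WT engrafted array 3 alone against ProB cells, a choice made after seeing the data, and 686 with a term for arrays high in Xist. Of the 897 calls, those 2 fits shared 276 and 343, and they called 89 and 97 genes lower. Against PreB cells the 1343 calls became 460 with only those 5 arrays in the fit, 97 with the actin difference as a covariate and 574 at an adjusted p under 0.01, and lay between 973 and 1277 with 1 array left out. Whether the shared replicate numbers 1 and 2 pair the samples cannot be decided here. With 2 ProB arrays, their deviations from the mean mirror each other, so each correlation returns with the opposite sign for the other ProB array. The deviations correlated at 0.06 between WT engrafted and ProB arrays numbered 1 and at -0.21 between those numbered 2. With the replicate number as a block 1010 genes were called against ProB cells, 671 of the 897 among them, and 1247 against PreB cells. The causes of these changes were not tested, except that fits with fewer arrays hold fewer degrees of freedom.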

Other observations

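In all, 148 genes were called higher and 25 lower in WT engrafted cells than in both ProB and PreB cells, 2 comparisons that share the WT engrafted arrays. The genes named here were chosen after their values were seen. Siglecg, an inhibitory lectin of B cells, read 10.6, 10.6 and 10.3 in WT engrafted cells, against 6.74 and 6.43 in ProB and 8.24 and 8.36 in PreB cells. H2-DMa, which loads peptides on class II molecules, read 7.83, 7.69 and 8.13, against 5.17 and 3.88 in ProB and 5.67 and 5.63 in PreB cells. Tlr1, a receptor for bacterial lipopeptides, read 7.16, 7.50 and 6.32, against 2.32 and 2.76 in ProB and 4.58 and 3.94 in PreB cells, and Fcrl1, a B cell receptor of the Fc receptor-like family, read 8.60, 7.86 and 6.99, against 4.36 and 5.27 in ProB and 5.43 and 5.43 in PreB cells. The WT engrafted arrays lie above all 4 others in each of these 4 genes. Of those lower than both, Ctla2a read 3.06, 2.56 and 3.42, against 5.72 and 6.45 in ProB and 9.75 and 10.6 in PreB cells, and Emb, a membrane glycoprotein of the immunoglobulin family, read 3.19, 3.75 and 3.08, against 5.70 and 6.25 in ProB and 7.87 and 6.46 in PreB cells. The Emb call against ProB cells was lost without WT engrafted array 1 (adjusted p = 0.0556) or ProB array 2 (0.0889).

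Some of these genes were also high in the Pax5KO engrafted cells. Mcpt8 read 5.85, 6.89 and 6.92 on the Pax5KO engrafted arrays, beside 7.07, 7.85 and 8.82 on the WT engrafted arrays. Oasl1, an interferon-induced gene, read 7.05, 7.36 and 7.75 on the Pax5KO engrafted arrays and 6.998, 6.61 and 6.19 on the WT engrafted arrays, against 4.62 and 3.77 in ProB and 3.44 and 3.45 in PreB cells. Common lymphoid progenitors (CLP) were sorted from the bone marrow of mice that the labels give no transplant. Oasl1 read 6.99 and 5.88 on the Ly6D- CLP arrays and 6.72 and 7.61 on the Ly6D+ CLP arrays. Mcpt8 read 3.052 and 2.602 on the Ly6D- CLP arrays and 3.315 and 5.576 on the Ly6D+ CLP arrays. H2-DMa read 7.78, 7.26 and 8.048 on the Pax5KO engrafted arrays. It read 10.21 and 10.24 on the Ly6D- CLP arrays and 10.55 and 10.12 on the Ly6D+ CLP arrays. Ms4a2 read 2.44, 2.44 and 3.48 on the Pax5KO engrafted arrays, beside 4.86, 5.77 and 6.17 on the WT engrafted arrays. The difference between the engrafted groups was not tested here.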
